A study of Mus musculus with 6 samples.

Results

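The genes described here are 9 tight junction genes of the mouse liver, Marveld1, Marveld2, Marveld3, Ocln, Tjp1, Tjp3, Cldn1, Cldn2 and Cldn3, among 45706 genes in the deposited table. They were listed by name as junction genes of hepatocytes. Marveld3 was chosen because its level was far lower in knockout livers, so the difference between the genotypes is given for all 9 as a description, without a test. All 9 passed the filter on low counts.

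Poly(A) RNA came from 3 liver samples of wild-type mice (WT 1 to WT 3) and 3 of Entpd8 knockout mice (KO 1 to KO 3), in a study concerned with ischemia of the liver. Entpd8 encodes NTPDase8, a cell-surface enzyme that breaks down extracellular nucleotides. The labels state neither strain, age, sex, the design of the deletion, nor whether these livers had undergone ischemia. Nor do they tie the 3 samples within a group to different mice, and every p-value below therefore measures only the spread between samples, which may be technical.

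Libraries held 32768764 to 46473522 counts. Entpd8 stood at 22.5 to 56.5 CPM (counts relative to library size, scaled by TMM factors) in wild-type libraries and at 0.382 to 1.09 CPM in knockout libraries. Mitochondrially encoded transcripts took 6.52% to 8.34% of wild-type and 10.1% to 11.7% of knockout counts. The 12 hepatocyte markers summed to 95960 to 127000 CPM in wild-type and 92050 to 118200 CPM in knockout libraries, ranges that overlapped, and none of these markers was at 0. These are whole-liver samples, in which fewer cells of a type and less RNA per cell cannot be told apart.

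Tight junctions seal the space between neighbouring epithelial cells. In liver they close the bile canaliculus, the narrow channel between hepatocytes, and keep bile apart from blood. Claudins form the sealing strands and their pores. Occludin, tricellulin and Marveld3 share the 4-pass MARVEL domain and join these strands, and ZO proteins bind the strands from inside the cell and tie them to actin.

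Marveld3 was the member with the largest difference. The encoded protein is known as a brake on stress kinase signalling at junctions, where it binds the kinase MEKK1. WT 1, WT 2 and WT 3 held 300, 148 and 146 counts of it, against 46, 33 and 40 for KO 1, KO 2 and KO 3. As CPM the values were 8.27, 3.79 and 4.05 against 1.17, 0.823 and 0.841. The groups did not overlap, and WT 1 lay well above both other wild-type libraries. The wild-type mean was 5.37 ± 2.51 CPM, and the knockout mean was 0.945 ± 0.196 CPM (SD, n = 3 per group). The fitted log2 fold change was -2.51 ± 0.36 (SE), or 5.68-fold lower, the 27th lowest of the 14069 genes tested. Leaving out 1 library at a time moved it between -2.71 (without WT 2) and -2.06 (without WT 1).

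Ratios within a library do not depend on how libraries are scaled. They use the same Marveld3 counts, so they describe the same difference without scaling and are not a separate result. Marveld3 had 0.882, 0.510 and 0.353 counts per count of Ocln in WT 1, WT 2 and WT 3. In KO 1, KO 2 and KO 3 it had 0.126, 0.0707 and 0.0964. Against Marveld2, WT 1 to WT 3 gave ratios of 0.706, 0.305 and 0.348, and KO 1 to KO 3 gave 0.127, 0.0979 and 0.0868. Neither ratio overlapped between the groups. By these counts Marveld3 stood lower relative to 2 other genes of the same family in each knockout library.

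**Figure D1:**
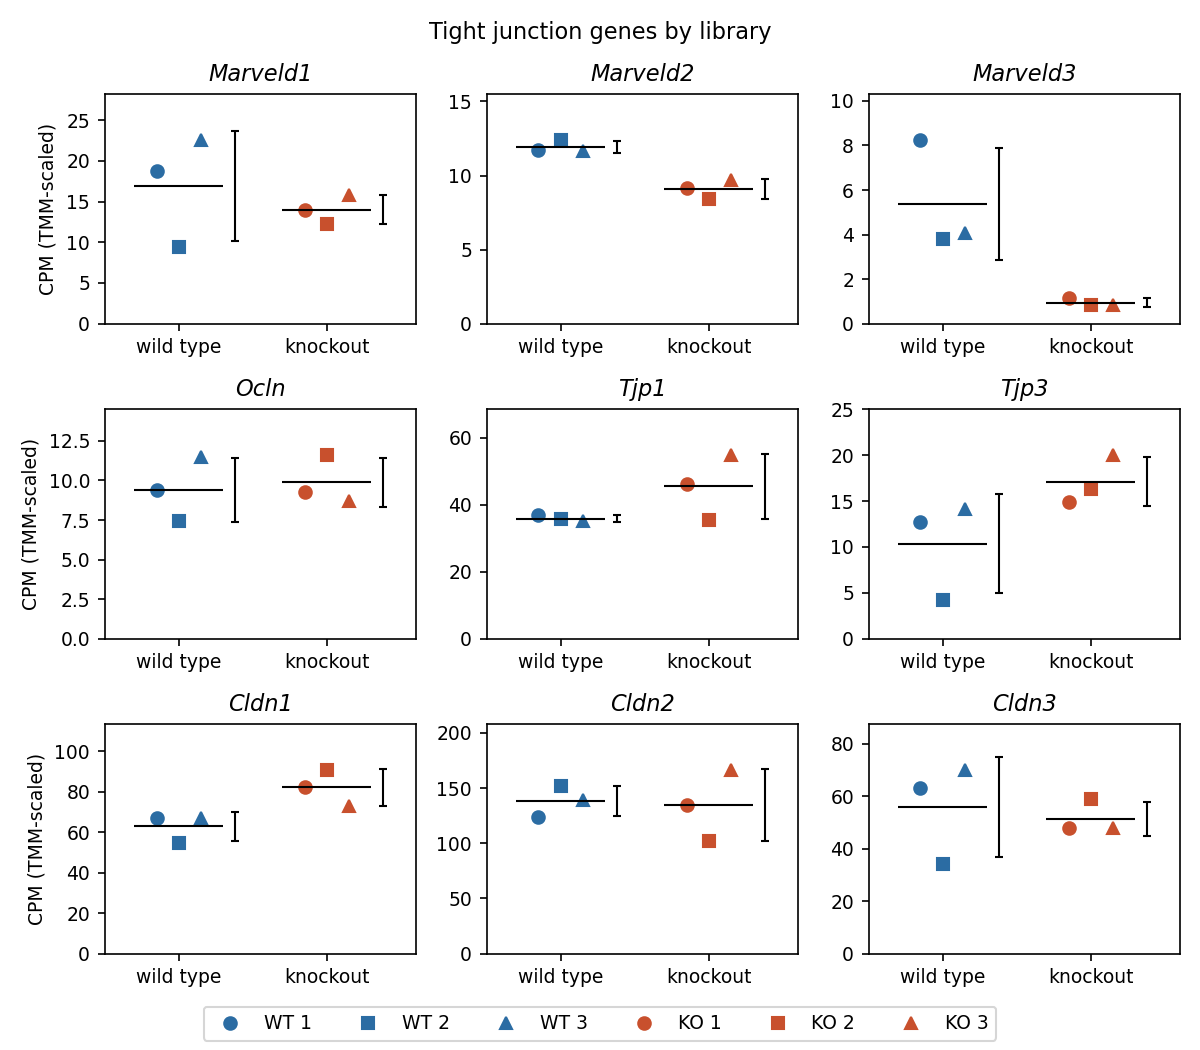
Level of each of the 9 genes in each library, in CPM scaled by TMM factors, with every axis starting at 0. Points are libraries, horizontal lines are group means and bars are ± 1 SD (n = 3 per group). Marveld3 shows the widest gap between the groups, with 3.79 to 8.27 CPM in wild type and 0.823 to 1.17 CPM in knockout.

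The other MARVEL genes differed less. Marveld2 encodes tricellulin, which sits where 3 cells meet. Its levels were 11.7, 12.4 and 11.7 CPM in WT 1, WT 2 and WT 3 and 9.19, 8.40 and 9.70 CPM in KO 1, KO 2 and KO 3. The groups did not overlap, although the log2 fold change was only -0.39 ± 0.13 (SE), since this gene had the smallest pooled SD of log2 CPM within groups of the 9 (0.082). Ocln encodes occludin, the first membrane protein found at tight junctions. It stood at 9.37, 7.43 and 11.5 CPM in wild-type and 9.26, 11.6 and 8.73 CPM in knockout libraries. These ranges overlapped almost fully, with a log2 fold change of 0.07 ± 0.20.

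Marveld1, a further gene with a MARVEL domain, had 18.8, 9.43 and 22.6 CPM in WT 1, WT 2 and WT 3 and 14.0, 12.3 and 15.8 CPM in KO 1, KO 2 and KO 3. The knockout values lay between the lowest and the highest wild-type values. Its log2 fold change was -0.27 ± 0.29, and lay between -0.56 without WT 2, the low wild-type library, and -0.008 without WT 3, the high one.

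Ocln and Marveld2 are close neighbours in the genome. On GRCm38 they lie on the minus strand of chromosome 13, Ocln from 100496507 to 100552718 and Marveld2 from 100595957 to 100616971, with 43238 bases between them and no other protein-coding gene there. Marveld2 was lower in each knockout library, while the fitted change of Ocln was near 0 and without a settled sign. Marveld3 lies on the minus strand of chromosome 8, from 109947914 to 109962203.

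Among the claudins, Cldn1 was the only one whose groups did not overlap. Claudin-1 is a sealing claudin. Cldn1 stood at 67.3, 54.9 and 67.3 CPM in WT 1, WT 2 and WT 3 and at 82.5, 91.1 and 73.0 CPM in KO 1, KO 2 and KO 3, with a log2 fold change of 0.38 ± 0.13 (SE). Every knockout library was above every wild-type library, with KO 3 closest to WT 1 and WT 3.

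Cldn2 encodes a claudin that forms a pore for small cations and water and is known to be graded across the liver lobule, highest near the central vein. Its levels were 124.0, 151.6 and 139.3 CPM in wild-type and 134.9, 101.8 and 166.8 CPM in knockout libraries. The knockout libraries spread over a wider range that enclosed the wild-type one, and the log2 fold change was -0.04 ± 0.19. Pericentral markers summed to 3976 to 5129 CPM in wild-type and 6739 to 7147 CPM in knockout libraries, without overlap. Of these 14 markers 3 rose (Cyp2e1, Rhbg and Lect2) and 1 fell (Tbx3), and none was at 0. Most of the difference in the sum came from Cyp2e1 alone, whose mean was 1898 CPM in wild type against 3704 CPM in knockout, and 6 of the 14 had a negative log2 fold change.

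Cldn3, a sealing claudin of hepatocytes and bile ducts, had 62.9, 34.3 and 70.1 CPM in WT 1, WT 2 and WT 3 and 47.7, 58.9 and 47.7 CPM in KO 1, KO 2 and KO 3. The knockout values fell inside the wild-type range, and the log2 fold change was -0.12 ± 0.25.

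Of the ZO scaffold genes, Tjp1 encodes ZO-1. It was nearly constant in wild type, with 37.0, 35.6 and 35.0 CPM, and varied in knockout, with 46.1, 35.5 and 55.0 CPM. KO 2 lay among the wild-type libraries and KO 1 and KO 3 above them. The log2 fold change was 0.34 ± 0.16 (SE), and lay between 0.19 without KO 3 and 0.50 without KO 2.

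Tjp3 encodes ZO-3, a scaffold of epithelial junctions related to ZO-1. It had 12.7, 4.2 and 14.2 CPM in WT 1, WT 2 and WT 3 and 14.9, 16.4 and 20.1 CPM in KO 1, KO 2 and KO 3. The groups did not overlap, but WT 3 and KO 1 were close. The log2 fold change of 0.73 ± 0.40 depended on the libraries included, with 0.35 without WT 2 and 1.01 without WT 3. The within-library ratio of Tjp3 to Tjp1 was 0.344, 0.118 and 0.404 in wild-type and 0.323, 0.460 and 0.365 in knockout libraries, which overlapped.

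**Figure D2:**
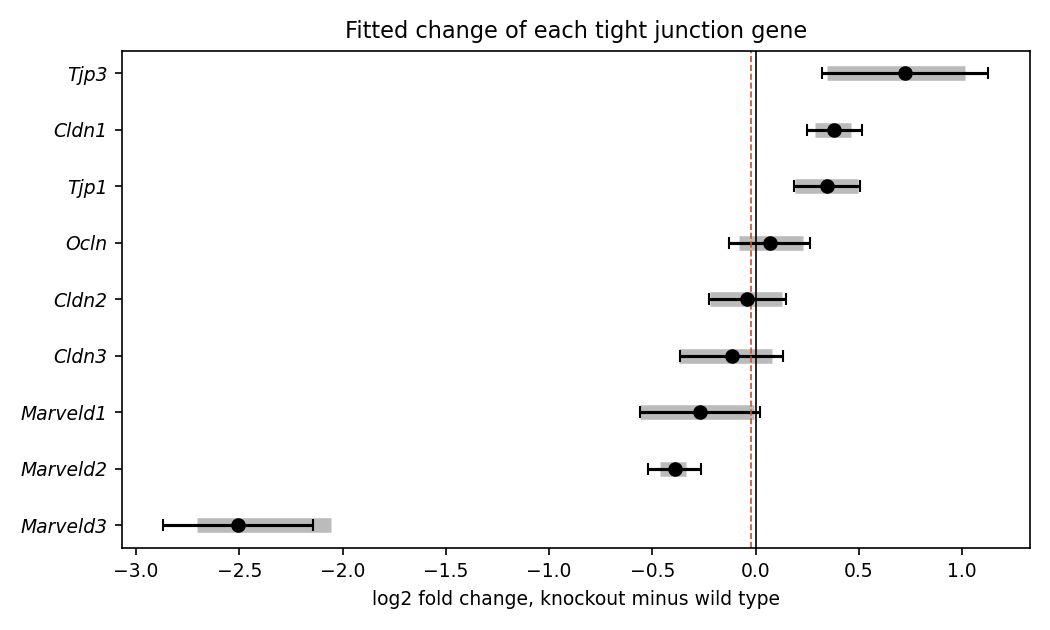
Fitted log2 fold change (knockout minus wild type) of each gene, with points for the estimate, bars for ± 1 SE and grey bands for the range over 17 alternative fits, 6 of them leaving out 1 library. The dashed line is the median of all 14069 genes tested (-0.02). Marveld3 at -2.51 stands far left of the other 8, which lie between -0.39 and 0.73.

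Read together, 1 of the 9 genes, Marveld3, was past an adjusted p of 0.05 in the fit over all genes, where 20.4% of genes were called. Since Marveld3 was chosen on this contrast, nothing is read from that count. It was 2 with DESeq2 and with the length trend removed (Cldn1 added), with upper-quartile scaling (Marveld2 added), without WT 2 (Marveld1 added) and without KO 2 (Tjp1 added). The groups did not overlap for 4 of the 9 (Marveld2, Marveld3, Tjp3 and Cldn1), against 40.7% of all genes tested, a share near the background. The median log2 fold change of the 9 was -0.04, beside -0.02 over all genes tested.

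WT 2 was the wild-type library with the lowest level for 6 of the 9 genes (Marveld1, Marveld3, Ocln, Tjp3, Cldn1 and Cldn3). Over all genes tested, WT 2 was the lowest of the 3 for 39%. The spread in wild type was uneven between genes. The highest wild-type library exceeded the lowest by 3.37-fold for Tjp3, 2.40-fold for Marveld1, 2.18-fold for Marveld3 and 2.04-fold for Cldn3, but only by 1.07-fold for Marveld2 and 1.06-fold for Tjp1.

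Levels of different genes were compared per length, as CPM divided by kilobases of exon. In wild type the claudins led, with Cldn3 at 44.3 ± 15.04, Cldn2 at 41.6 ± 4.16 and Cldn1 at 13.0 ± 1.48 CPM per kilobase (SD, n = 3). Cldn3 and Cldn2 overlapped in range, and both lay above Cldn1 in every library. Tjp1 followed at 4.59 ± 0.128, Marveld1 at 3.94 ± 1.58, Marveld2 at 3.53 ± 0.127, Tjp3 at 2.79 ± 1.45 and Ocln at 2.23 ± 0.478 CPM per kilobase. The wild-type range of each of these 5 genes overlapped that of the next in order, so neighbours in the order did not differ beyond their spread. Genes further apart did in part, since Tjp1 lay above Marveld2, Tjp3 and Ocln in range, and Marveld2 above Ocln. Marveld3 was last, at 1.64 ± 0.765 CPM per kilobase, and its range overlapped that of Ocln.

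In knockout the order was Cldn3, Cldn2, Cldn1, Tjp1, Tjp3, Marveld1, Marveld2, Ocln and Marveld3. Tjp3 thus moved from the seventh place to the fifth, but held the fifth in both genotypes when mean transcript length replaced exon length. Marveld3 at 0.288 ± 0.0596 CPM per kilobase stood below every other gene in every knockout library, with Ocln next at 2.34 ± 0.367. Marveld3 made up 1.39% of the summed level of the 9 genes in wild type and 0.245% in knockout. Claudins made up most of it in both, Cldn3 with 37.7% and 34.8% and Cldn2 with 35.4% and 34.5%. These shares depend on the length used. With mean transcript length, Cldn2 stood at 101.5 and Cldn3 at 44.3 CPM per kilobase in wild type.

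**Figure D3:**
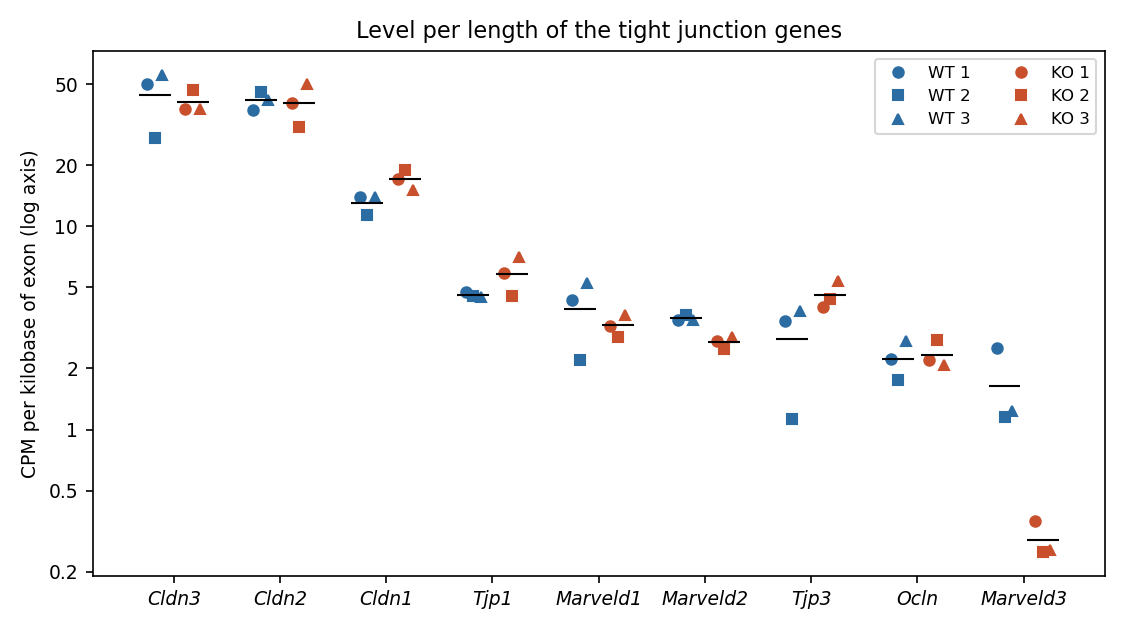
Level per length of the 9 genes, in CPM per kilobase of exon on a log axis, ordered by the wild-type mean. Points are libraries and horizontal lines are group means. The 3 claudins lie above 11 in every library, and Marveld3 in knockout lies between 0.251 and 0.356, apart from all other points.

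The genes whose log2 CPM over the 6 libraries was most like that of Marveld3, among 10385 with a mean log2 CPM of at least 1, were Zfp612 (Pearson r = 0.997), Fuca2 (0.997), Jpx (0.996), Slx4ip (0.996) and Zfp953 (0.995). These values describe 6 points that fall into 2 genotype groups and share libraries. All 5 were highest in WT 1 and lower in knockout, by log2 fold changes of -0.97 to -0.55. This pattern follows from how the 5 were chosen and is not a separate result. Marveld3 differed far more than any of them.

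Other genes of the junction were then examined from lists drawn up by function. Over all 14069 genes tested, 9.8% were called higher and 10.6% lower (edgeR quasi-likelihood test, Benjamini-Hochberg adjusted p under 0.05). Counts below are to be read against these shares.

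Among other membrane proteins of the tight junction, the coxsackievirus and adenovirus receptor Cxadr rose, as did Igsf5, a junctional adhesion molecule, and the claudin Cldn4, while Cldn12 fell. Cxadr had 101.9, 89.1 and 66.2 CPM in WT 1, WT 2 and WT 3 and 192.6, 159.9 and 181.0 CPM in KO 1, KO 2 and KO 3. The fitted change was 1.05 ± 0.17 on the log2 scale (SE, edgeR adjusted p = 0.0083), and it passed in every alternative fit. Igsf5 changed by 0.53 ± 0.13 (adjusted p = 0.0275, edgeR) and Cldn12 by -0.43 ± 0.11 (adjusted p = 0.0321, edgeR). In all, 3 of 18 tested rose and 1 fell, with a median log2 fold change of 0.20. Jam2 (-0.60 ± 0.28), Tmem47 (-0.70 ± 0.27) and Cldn5 (0.54 ± 0.17) did not pass. Igsf5 and Cldn12 each missed the threshold when any of 4 libraries was left out (edgeR, adjusted p up to 0.137), so that 0 fell without WT 1, WT 3, KO 1 or KO 2, and 2 without KO 3. With library totals alone, Igsf5 did not pass (edgeR, adjusted p = 0.0843).

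Cldn4, named after its values were seen, is the neighbour of Cldn3 on chromosome 5, with 39279 bases between them. It had 6, 0 and 2 counts in WT 1, WT 2 and WT 3 and 51, 28 and 66 counts in KO 1, KO 2 and KO 3 (adjusted p = 0.0117, edgeR). It missed the threshold without KO 1 (edgeR, adjusted p = 0.0504) and was dropped by a filter of 1 CPM in every library of a group. With so few wild-type counts its fitted log2 fold change of 3.91 ± 0.73 was poorly fixed, from 3.32 without WT 2 to 5.24 without WT 1. Cldn3 next to it did not differ in this way, with overlapping groups. Claudin-4 is known from bile duct and other epithelia, so cholangiocyte markers were examined beside it. Of 14 such markers 11 were tested, 3 rose (Krt19, Epcam and Tspan8) and 0 fell (0 lower also at an unadjusted p under 0.05, edgeR). Of the 11, 9 had a positive log2 fold change, while Muc1 (-0.41 ± 0.31) and Slc4a2 (-0.14 ± 0.10) had a negative one. The summed level of the 14 markers was 152.8 to 182.5 CPM in wild-type and 200.5 to 398.7 CPM in knockout libraries. Most of the difference in this sum came from Spp1, osteopontin, whose mean was 67.6 CPM in wild type against 160.9 CPM in knockout, which did not pass (adjusted p = 0.0519, edgeR). No marker was at 0 in all libraries, although Sctr was at 0 in WT 1, WT 2, WT 3 and KO 1. Krt19, a keratin of bile ducts, had 0.882, 0.564 and 1.31 CPM in wild-type and 3.13, 3.64 and 7.11 CPM in knockout libraries, and changed by 2.34 ± 0.42 (adjusted p = 0.0108, edgeR). The part of these cells in the level of Cldn4, or of Cldn3, Cldn1 and Tjp3, was not tested.

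Of the plaque and polarity genes inside the junction, 4 of 35 tested rose and 4 fell, shares near those over all genes. Those that rose included Micall2, Pard3b and Pard6b. Micall2, a partner of Rab13 in junction assembly, changed by 0.98 ± 0.23, and the polarity genes Pard3b by 0.80 ± 0.21 and Pard6b by 0.66 ± 0.17.

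The genes that fell were Afdn, Arhgef18, Cgnl1 and Llgl2, of which Cgnl1 and Llgl2 were named after their values were seen. Afdn encodes afadin, which links nectins to actin, and changed by -0.68 ± 0.16 (adjusted p = 0.0239, edgeR). Arhgef18, an activator of RhoA at junctions, changed by -0.41 ± 0.10, the cingulin relative Cgnl1 by -0.45 ± 0.12 and the polarity gene Llgl2 by -0.47 ± 0.13. Each of these 7 named genes missed the threshold without any 1 of 4 or more of the 6 libraries (edgeR, adjusted p up to 0.161). The number that rose was 1 without WT 1, 2 without WT 2, 1 without WT 3, 0 without KO 1 and 1 without KO 3. The number that fell was 7 without WT 2, 1 without WT 3 and 0 without WT 1, KO 1, KO 2 or KO 3. Once a trend with transcript length was taken out of every library, 7 rose and 1 fell.

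Neighbouring junction types were listed as well. Of 22 adherens junction, desmosome and gap junction genes, 4 rose and 0 fell, with a median log2 fold change of 0.15. At an unadjusted p under 0.05, 4 were lower with edgeR, and DESeq2 and limma voom each called 1 lower. The gap junction gene Gja1, connexin 43, changed by 1.03 ± 0.22 (SE, adjusted p = 0.0187, edgeR), and the actin linker Vcl, vinculin, by 0.64 ± 0.13 (adjusted p = 0.0147, edgeR). Nectin2, a cell adhesion receptor, changed by 0.45 ± 0.12 and Perp, a desmosome protein, by 0.40 ± 0.11. Beta-catenin, Ctnnb1 (-0.37 ± 0.12), and the desmosomal cadherin Dsg2 (0.50 ± 0.16) did not pass. Without KO 1, 0 of the list rose, and 2 rose without WT 1, WT 2, KO 2 or KO 3. Without WT 2, 1 fell. Nectin2 did not pass under upper-quartile or total-count scaling, nor Perp with these, no filter or the length trend removed (edgeR, adjusted p up to 0.109). Perp missed the threshold without any 1 of the 6 libraries (edgeR, adjusted p up to 0.162). Nectin2 missed it without any 1 of 5 (edgeR, adjusted p up to 0.118). Gja1 and Vcl missed it without KO 1 (edgeR, adjusted p = 0.0627 and 0.0755).

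Of 18 bile canaliculus genes tested, 1 rose and 0 fell (2 lower at an unadjusted p under 0.05 with edgeR, 1 lower with DESeq2, 0 with limma voom). The gene that rose was Abcb1a, a multidrug efflux pump, at 1.08 ± 0.24 (SE, adjusted p = 0.0198, edgeR). The call of Abcb1a ended without WT 3, KO 1 or KO 3 (edgeR, adjusted p up to 0.0788). Across this list, 2 rose without WT 1, 0 without KO 1 or KO 3, and 1 fell without WT 2. The bile salt export pump Abcb11 (0.44 ± 0.17), the phospholipid flippase Abcb4 (0.46 ± 0.20), Abcg2 (0.30 ± 0.11), Anpep (-0.56 ± 0.18) and Stk11 (-0.26 ± 0.11) did not pass.

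**Figure D4:**
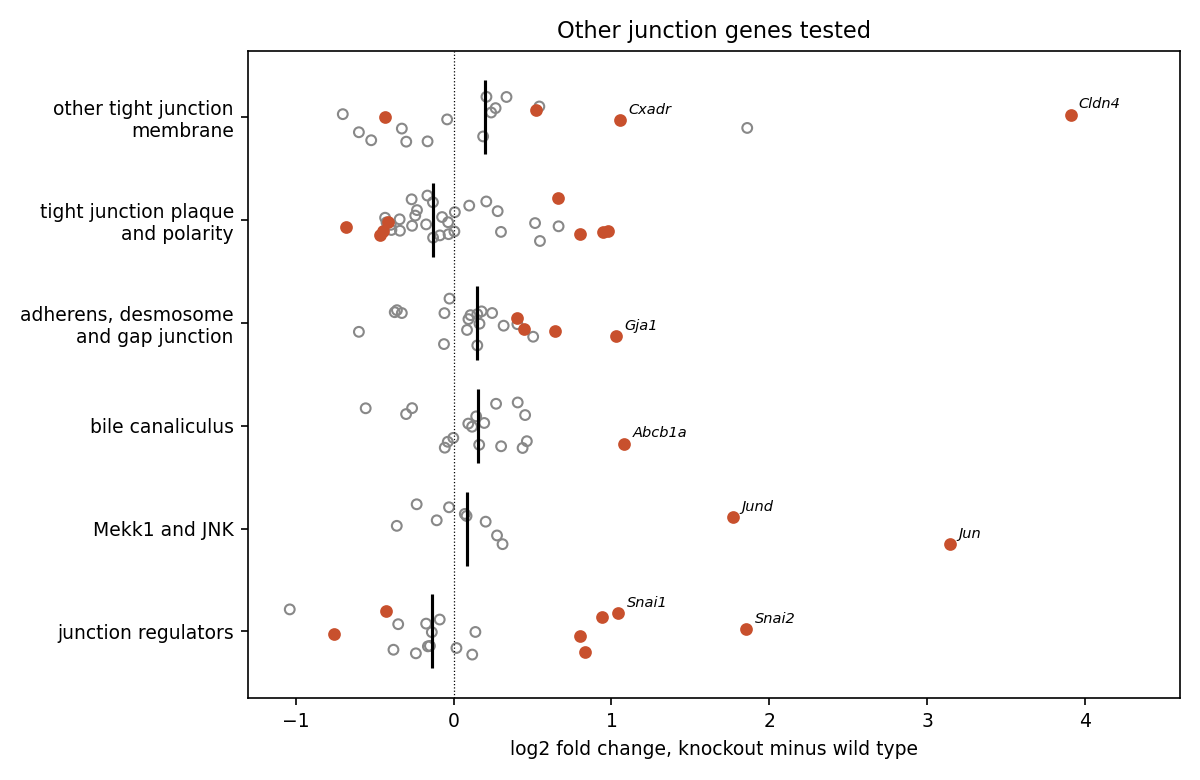
Log2 fold change (knockout minus wild type) of each tested gene of 6 lists, with the 9 main genes left out. Filled points passed an adjusted p of 0.05 in edgeR, open points did not, and vertical bars are list medians. Called genes lie on both sides of 0 in the membrane, plaque and regulator lists, and the largest values are those of Cldn4 (3.91) and Jun (3.15).

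Because Marveld3 is known to act on MEKK1 and the kinase JNK, genes of that branch were listed. Of 11 tested, 2 rose, Jun and Jund, and 0 fell (0 lower also at an unadjusted p under 0.05, and with DESeq2 and limma voom). Jun, the transcription factor that JNK phosphorylates, changed by 3.15 ± 0.39 (SE, adjusted p = 0.00438, edgeR) and Jund by 1.77 ± 0.23 (adjusted p = 0.00442, edgeR). Both passed in every alternative fit. The kinases did not pass, with 0.20 ± 0.12 for Mapk8 and 0.28 ± 0.11 for Mapk9, and 0.08 ± 0.22 for Map3k1, the gene of MEKK1, which was named for its known tie to Marveld3. Mapk8ip3 (0.31 ± 0.12) and Ccnd1 (-0.23 ± 0.21) did not pass either. The median of the 11 was 0.08. RNA levels do not measure phosphorylation by JNK, and a link of Jun or Jund to the level of Marveld3 was not tested.

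Of 19 regulators of junction genes, 5 rose and 2 fell. Snai2 and Snai1 encode the repressors Slug and Snail, known to act on cadherin, occludin and claudin genes. Snai2 had 2.89, 1.85 and 2.33 CPM in WT 1, WT 2 and WT 3 and 8.19, 10.1 and 7.28 CPM in KO 1, KO 2 and KO 3, without overlap. The fitted change was 1.85 ± 0.23 on the log2 scale (SE, edgeR adjusted p = 0.00346), and it passed in every alternative fit. Snai1 changed by 1.04 ± 0.26 (adjusted p = 0.0295, edgeR), the actomyosin kinase Rock2 by 0.80 ± 0.14 (adjusted p = 0.0106, edgeR), and the epithelial factor Grhl1 by 0.94 ± 0.28. Zeb1, a further repressor named after its values were seen, changed by 0.83 ± 0.25 (adjusted p = 0.0496, edgeR). Those that fell included Itch, a ubiquitin ligase that acts on occludin, which fell by 0.43 ± 0.11 on the log2 scale.

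Snai1, Grhl1, Zeb1 and Itch missed the threshold without any 1 of 5 libraries, and Rock2 without KO 1 (edgeR, adjusted p up to 0.143). The number of regulators that rose was 2 without WT 1, WT 3 or KO 3, 3 without KO 2 and 1 without KO 1. The number that fell was 1 without WT 1, WT 3, KO 1, KO 2 or KO 3. Grhl1 did not pass under upper-quartile or total-count scaling, Itch with the length trend removed, and Zeb1 with 5 alternatives (edgeR or limma, adjusted p up to 0.0978).

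Because Snail and Slug bind the E-box letters CAGGTG, these were searched on both strands of RefSeq promoter windows (250 bases before to 50 after a gene's start, GRCm38.p6). Of all 32851 windows, 20.2% held a match. Windows were available for 8 of the 9 genes, 11 windows in all. Marveld3 had no window, so its promoter was not searched. Matches stood at 6 places in Cldn3, Marveld2, Ocln and Tjp3, and there was none in the windows of Marveld1, Tjp1, Cldn1 and Cldn2. Windows of Marveld2 overlap each other, as do those of Ocln. The 6 places are therefore not comparable with the share over all windows. They are shown because they are the letters that these repressors read, each in 30 bases with the match in capitals, 5′ to 3′ on the strand of the gene.
Cldn3, chr5:134986233-134986262: caaagccacaggCAGGTGcaggggcagtct
Marveld2, chr13:100616911-100616940: ccggcggccgcgCAGGTGagtggggccgcg
Ocln, chr13:100552694-100552723: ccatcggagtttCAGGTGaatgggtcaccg
Ocln, chr13:100552549-100552578: ctaggggctcggCAGGTGggtcccagcgca
Tjp3, chr10:81291672-81291701: gtcacaaggggtCAGGTGtacagacaggga
Tjp3, chr10:81291267-81291296: cacaaaccctccCACCTGcaggccggcctc
By GENCODE M21, the matches of Cldn3, Marveld2 and Ocln overlap untranslated exon sequence, at least in part. Those of Tjp3 lie upstream of the gene and in an intron. The genes with a match included Marveld2, lower in each knockout library, Ocln and Cldn3, whose groups overlapped, and Tjp3, higher in each knockout library. A match describes letters and not a bound site.

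Other letters were sought in the same windows on both strands. The AP-1 letters TGANTCA were in 7.81% of all windows and the HNF4 letters CAAAGTCCA in 0.475%. Neither was in the 11 windows of the 8 genes searched, which says only that these letters are not there. Marveld3 was not among the 8. The 250 bases before the outer start of Tjp3 are shown whole because this gene had the highest fitted change of the 9 and a match upstream of it.
Tjp3, chr10:81291582-81291831: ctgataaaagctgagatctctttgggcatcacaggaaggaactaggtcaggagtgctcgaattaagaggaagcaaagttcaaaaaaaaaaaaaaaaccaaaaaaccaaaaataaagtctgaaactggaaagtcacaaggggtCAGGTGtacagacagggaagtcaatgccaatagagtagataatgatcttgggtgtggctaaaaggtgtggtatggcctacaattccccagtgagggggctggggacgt
This stretch lies on the minus strand of chromosome 10 and holds the E-box match in capitals.

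Genes flanking the 9 were taken as the nearest protein-coding gene on each side, 18 genes of which 16 were tested. Ocln and Marveld2 flank each other, so both are counted among these 18 and 16. Of the 16 tested, 1 rose, Cldn4 beside Cldn3, and 1 fell, Phlpp2 beside Marveld3. Phlpp2, a phosphatase gene 3242 bases from Marveld3 on the other strand, had 7.61, 7.87 and 6.64 CPM in WT 1, WT 2 and WT 3 and 5.01, 5.01 and 4.44 CPM in KO 1, KO 2 and KO 3. The fitted change was -0.61 ± 0.16 on the log2 scale (SE, edgeR adjusted p = 0.0314). Its call ended without any 1 library other than WT 3 or with the length trend removed (edgeR, adjusted p up to 0.123). Tat, on the other side of Marveld3, did not pass (-0.22 ± 0.28).

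Markers of other liver cells were summed for comparison. Kupffer cell markers (12 tested) stood at 156.7 to 338.7 CPM in wild-type and 75.8 to 108.8 CPM in knockout libraries, where 7 fell and 0 rose (0 higher also at an unadjusted p under 0.05, edgeR). Sinusoidal endothelial markers (12 tested, 2 lower) stood at 235.5 to 278.9 against 178.7 to 270.1 CPM, and stellate cell markers (12 tested, 1 lower) at 264.9 to 379.5 against 169.9 to 364.4 CPM. Neutrophil markers (8 of 9 tested, none called) stood at 19.4 to 131.6 against 88.4 to 120.2 CPM. Mesothelial markers (5 of 7 tested, none called, 1 higher at an unadjusted p under 0.05, edgeR) stood at 642.6 to 896.9 against 1074 to 1345 CPM, nearly all of it from the keratin Krt8, which hepatocytes also express. Periportal markers (12 tested, 1 higher and 2 lower) stood at 5755 to 7775 against 5664 to 6553 CPM. No marker of these lists was at 0 in all libraries, and their part in the levels of the 9 genes was not tested.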

How the data were processed

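Expected counts, that is estimated counts with fractions, were deposited by the authors in 1 table with a column for each sample, unscaled, per the file headers. Per the submitters' processing notes the tools were Trim Galore, STAR and Salmon and the build was GRCm38. Their versions and the annotation: not given in the sources used here. Per the labels' protocols, poly(A) RNA was enriched, and strand is not mentioned. Estimated counts share reads between similar transcripts, so related genes are less certain.

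Counts were rounded, filtered with filterByExpr (14069 genes left), scaled by TMM and tested by genotype in edgeR 4.0.16 (R 4.3.3) with a robust quasi-likelihood test, two-sided, with Benjamini-Hochberg adjustment over all genes tested. SEs were derived from each log2 fold change and its F statistic. Groups came from sample titles, and no sample was left out. Symbols came from a name table (45143 of 45706 genes), coordinates and exon lengths from GENCODE M21 (GRCm38). Depth was 32768764 to 46473522 counts per library. On simulated counts of 14069 genes, the fit called 72 of 97 genes changed 3-fold, 5 of 99 changed 1.5-fold and 4 of 13524 unchanged. Few genes were changed in the simulation, whereas 20.4% were called in the data. The adjusted threshold therefore stands for a different p, and these shares do not carry over to the data. Libraries of a group differed by 34.2 to 139.4 times counting noise, so none was merely another library sequenced again. This measure cannot tell separate mice from separate preparations of the same liver. With 3 libraries per group an exact permutation test cannot go below 0.1.

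The 9 genes and the lists were chosen with earlier results of these data known. Named were the 9 genes, up to 6 genes per junction list (lowest p, with log2 CPM averaging 0 or more), and the 5 genes most correlated with Marveld3 (not counting pseudogenes, Riken clones or predicted models). Flanking genes and promoter motifs were added after the data were seen. Other settings tried were scaling by RLE, upper quartile or totals, other filters, no robust weights, DESeq2 1.42.0, limma 3.58.1 (voom), a length trend per library removed (lowess span 0.5), mitochondrial and hemoglobin genes left out, the replicate number as a block and leaving out each library. Figures were drawn with matplotlib 3.10.9. Some results of the plaque and regulator lists are not reported here, although their genes are in the counts.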

Additional observations from a re-analysis of the deposited data

How the results depend on the processing

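Of the 9 main genes, Marveld3, Marveld2, Marveld1, Tjp1, Tjp3 and Cldn1 kept their sign in all 17 alternative fits, although Marveld1 was at -0.008 without WT 3. Ocln, Cldn2 and Cldn3 did not. Ocln reversed with library totals alone (-0.025), without WT 2 (-0.079) and without KO 2 (-0.065), and ranged from -0.079 to 0.23 when 1 library was left out. Cldn2 reversed without WT 2 (0.03) and without KO 2 (0.127), in a range of -0.222 to 0.127, and Cldn3 without WT 3 (0.078), in a range of -0.372 to 0.078. The cause was not tested. With mean transcript length in place of exon length, Marveld3 remained last (3.72 CPM per kilobase in wild type, beside 4.04 for Ocln), Cldn2 (101.5) passed Cldn3, and Tjp3 held the fifth place in both genotypes.

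Counts in the junction lists were small and moved easily. With upper-quartile scaling, 2 adherens genes rose and 1 fell, 3 regulators rose and 1 canaliculus gene fell. With library totals alone, 2 plaque genes rose, 2 adherens genes rose and 1 fell, and 3 regulators rose. With no low-count filter, 5 membrane genes rose and 1 canaliculus gene fell, and with 1 CPM required in every library of a group 1 adherens gene fell. DESeq2 called 5 membrane, 7 adherens and 3 canaliculus genes higher and 1 adherens and 1 canaliculus gene lower, and limma voom called 1 adherens gene lower. With the length trend removed, 7 plaque and 2 canaliculus genes rose, and 1 plaque gene and 1 regulator fell.

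Leaving out 1 library at a time gave 385 to 1390 genes higher and 218 to 1690 lower over all genes, against 1379 and 1492 with all 6, lowest without KO 1 and highest without WT 2. With fewer libraries the test has fewer degrees of freedom. The ranges were 2 to 4 higher and 0 to 2 lower for membrane, 0 to 4 and 0 to 7 for plaque, 0 to 4 and 0 to 1 for adherens, 0 to 2 and 0 to 1 for canaliculus, and 1 to 4 and 1 to 2 for regulator genes. In the Mekk1 and JNK list 2 rose and 0 fell in each of these fits.

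The labels state no pairing of samples, and none by replicate number was seen. With 3 samples per group the values below cannot exclude one. Deviations from the group means of WT 1 and KO 1 correlated at -0.076, of WT 2 and KO 2 at 0.013 and of WT 3 and KO 3 at -0.085, and no sample correlated best with its own number. With the replicate number as a block, 807 genes were higher and 661 lower. In that paired fit 1 plaque, 1 adherens, 0 canaliculus and 3 regulator genes rose, and 0 membrane, 1 plaque and 1 regulator gene fell.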

Other observations

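Of 40 other tight junction membrane genes in the table, 22 did not reach the low-count filter, and 10 of these were at 0 in all 6 libraries. Cldn6, a claudin of embryonic epithelia, had 1, 3 and 1 counts in WT 1, WT 2 and WT 3 and 3, 19 and 19 counts in KO 1, KO 2 and KO 3. Cldn18, a claudin of stomach and lung, had 1, 0 and 1 counts in wild-type libraries and 1, 0 and 16 in knockout libraries, nearly all in KO 3. Cldn7, which passed the filter but not the test, had 12, 2 and 13 counts in wild-type and 20, 34 and 63 counts in knockout libraries (adjusted p = 0.0703, edgeR). These genes were picked after their values were seen, and others with few counts went the other way. Cldn15 had 9, 5 and 14 counts in wild-type and 4, 4 and 9 in knockout libraries. For Cldn34c1 the counts were 11, 8 and 16 in wild-type and 10, 6 and 5 in knockout libraries.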
